A study of Homo sapiens with 12 samples.

Results

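Genes of fatty acid synthesis and desaturation were examined in human stem cell-derived neurons of 2 types. The members were 10 genes, *SREBF1*, *ACLY*, *ACSS2*, *ACACA*, *FASN*, *ELOVL6*, *SCD*, *SCD5*, *FADS1* and *FADS2*, taken by their symbols from the deposited tables. All 10 were listed in both tables, among 16406 genes for motor neurons and 19016 for glutamatergic neurons. Motor neurons (iMNs) were made from an induced pluripotent stem cell line that carries Td-Tomato under the HB9 promoter, and were sorted on that reporter. Glutamatergic neurons (i3Ns), labelled as cortical neurons, were made from H1 embryonic stem cells by induced NGN2, a transcription factor that drives neuronal fate. Cells of each type received a doxycycline-inducible lentiviral shRNA, either scrambled (SCR) or against *SMN1* and *SMN2* (*SMN*-KD), so the controls carried a vector, an shRNA and doxycycline as well. The 12 libraries, 3 per shRNA in either type of neuron, were made from RNA depleted of ribosomal RNA. Because iMNs and i3Ns started from different stem cell lines, 1 line each, cell type, line and differentiation protocol cannot be told apart.

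Fatty acids are built in the cytosol from acetyl-CoA. *ACLY* encodes ATP citrate lyase, which makes acetyl-CoA from exported citrate, and *ACSS2* encodes the enzyme that makes it from acetate. *ACACA* encodes acetyl-CoA carboxylase, which commits acetyl-CoA to the pathway as malonyl-CoA, and *FASN* encodes the synthase that joins these units into palmitate. *ELOVL6* lengthens palmitate to stearate, *SCD* and *SCD5* insert the first double bond to give oleate, and *FADS2* and *FADS1* desaturate dietary polyunsaturated fatty acids. *SREBF1* encodes the SREBP1 transcription factors, which are known to switch on most of these enzymes. In the nervous system these products go into membranes, and glia are known to supply neurons with part of their lipids.

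The value used here was the authors' mean normalized count, which averages a gene over the SCR and *SMN*-KD libraries of a cell type. It carries no SD and no number of replicates, depth per library is unknown, and no test could be made. A pooled mean cannot show the effect of *SMN*-KD, and the knockdown itself cannot be checked from it. The authors' own fold changes and p-values were not used. In such bulk values, fewer cells of a type and less RNA per cell cannot be told apart.

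The neuron labels were compared with marker genes, and the markers did not all follow them. Pan-neuronal *TUBB3* and *STMN2* were among the highest means in both tables, at 58362 and 81082 normalized counts in iMNs and 70054 and 84089 in i3Ns. Of 6 neuron markers, 1 was past 2-fold, *SNAP25*, which was higher in iMNs (18426 in iMNs and 4847 in i3Ns). The vesicular glutamate transporter *SLC17A6* had 593 in iMNs and 11237 in i3Ns, in the direction of the labels. The choline transporter *SLC5A7* had 8460 in iMNs and 2472 in i3Ns, also in that direction. The motor neuron transcription factors went the other way. *MNX1*, which encodes HB9, had 429.7 in iMNs and 2279 in i3Ns, and *ISL1* had 1663 and 14299. *ISL2* had 70.6 in iMNs and 3558 in i3Ns, and *LHX3* had 15.1 and 229.7. Of 7 motor neuron markers, 4 were more than 2-fold higher in i3Ns and 1 in iMNs, beside 9.46% and 15.2% of all genes. Of 5 progenitor and cycling markers, 3 were more than 2-fold higher in i3Ns and 1 in iMNs, and their summed mean was 6382 in iMNs and 30635 in i3Ns, nearly all of it from *NES* (6043 and 29662). *MKI67*, a proliferation gene, had 28.3 and 521.7, and *LIN28A*, a gene of pluripotent and early cells, had 214.7 and 4216. The other pluripotent markers, *POU5F1* and *NANOG*, were not listed in iMNs and had only 13.9 and 7.73 in i3Ns. The astrocyte markers *GFAP* and *AQP4* were listed in neither table, and the summed mean of the 6 astrocyte markers was 131 in iMNs and 124 in i3Ns. The oligodendrocyte markers *SOX10* and *MOG* were listed in neither, and the sum of that list was 376 in iMNs and 1433 in i3Ns. The 4 mesenchymal markers summed to 2546 in iMNs and 5945 in i3Ns, and 1 of them was past 2-fold, *COL1A1* at 1321 and 4228. *COL3A1* and *LUM* were higher in i3Ns within 2-fold, and *COL1A2* went the other way, at 686 in iMNs and 611 in i3Ns. The part of all these markers in the results on the lipid genes was not tested.

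Positions are those of GENCODE release 44 on GRCh38, the build named in the labels, and all 10 genes are protein-coding. Of the 10, 4 lie on the minus strand of chromosome 17, *SREBF1* (17810399 to 17837002), *ACACA* (37084992 to 37406836), *ACLY* (41866917 to 41930542) and *FASN* (82078338 to 82098294). *SCD5* (82629539 to 82798796) and *ELOVL6* (110045846 to 110199199) are on the minus strand of chromosome 4. *SCD* is on the plus strand of chromosome 10 (100347233 to 100364826) and *ACSS2* on that of chromosome 20 (34872146 to 34927962). *FADS2* occupies the plus strand of chromosome 11 from 61792980 to 61867354, and *FADS1* lies within that span on the minus strand (61799627 to 61829318).

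Their reference transcripts (MANE Select, 1 agreed transcript per gene) differ in layout. The 3′-UTR is 9.55% of the 8464 bases of *FASN* and 20.8% of the 4293 bases of *ACLY*. It is 74.3% of *SCD* (5245 bases), 83.6% of *ELOVL6* (6570 bases) and 63.9% of *FADS1* (4364 bases). *ACACA* has the longest transcript, 10013 bases over 56 exons, and *ACSS2* the shortest at 2885. The exons of the *FADS1* and *FADS2* reference transcripts share no base, and those of *SREBF1* share 120 with *RAI1* on the opposite strand. The sources used here do not say whether reads were assigned by strand.

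Promoter sequences were examined for features that these genes share. RefSeq promoters of GRCh38.p14, each 300 bases long from 250 bases upstream, were found for 9 of the 10 genes, all but *FASN*. For *FADS2*, *ACSS2* and *ACLY* the RefSeq start lies upstream of the first exon of the reference transcript, by 12097, 1623 and 71 bases. The windows searched for these genes therefore do not reach the start of the reference transcript. Matches in them, or their absence, may not concern that transcript. Both strands were searched for 5 motifs. The GC box GGGCGG, a site for SP1-type factors, was present in 8 of the 9 promoters and in 44.6% of 27305 promoters of the same length. *ACACA* held 6 matches, of which 4 overlap each other in 1 repeat, leaving 3 separate places. *ACLY* and *SCD5* held 4 separate matches each, and *FADS2* none. The median GC content of the 9 was 70.7%, and that of all promoters was 58.3%. The 27305 promoters were not matched to the 9 for GC content, so the GC box share cannot be separated from base composition. The CCAAT box, the site of NF-Y, was present in 4 of the 9, near the share of 35.7% of all. The sterol response element TCACNCCAC, bound by SREBPs, was present in none of the 9 and in 1.15% of all. With so rare a match, none in 9 promoters would be likely for any genes, so no lack of SREBP sites can be read from it. The search also took 1 form of the site within 300 bases and left out *FASN*. The E-box CACGTG was in none of the 9 and in 7.43% of all, and TATAAA in none and in 11.95%. No matches of different motifs shared bases. The CCAAT windows of both stearoyl-CoA desaturases and of *ACLY* are printed below, because 2 of these genes were among the highest of the 10. The other gene with a match, *ACSS2*, was among the lowest 2 by mean, and *FADS2*, among the highest 4, had no match in its upstream window. Capitals mark the match, which reads ATTGG where it lies on the opposite strand, and each window is written along the strand of its gene.
*SCD*, 229 bases upstream of the start, plus strand, chr10:100346996-100347016: gcgccgagCCAATggcaacgg
*SCD*, 186 bases upstream, plus strand, chr10:100347039-100347059: cccttcggCCAATgacgagcc
*SCD5*, 135 bases upstream, minus strand, chr4:82798919-82798939: cgctcctgATTGGctgtagct
*ACLY*, 65 bases upstream, minus strand, chr17:41919075-41919095: agcagcgaATTGGgaggagcc
*ACLY*, 23 bases upstream, minus strand, chr17:41919033-41919053: gcgtgtggCCAATcgcggggc
These are matches of letters, and a link between them and the levels of these genes was not tested.

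The 10 genes together held 178536 normalized counts in iMNs, which was 0.412% of the sum of that table. In i3Ns they held 190590 (0.423%). Single genes ranged from 1881 to 57002 in iMNs and from 1428 to 45541 in i3Ns, so that the highest was 30.3 times the lowest in iMNs and 31.9 times in i3Ns. By mean normalized count, 6 of the 10 were in the top 5% of genes in each table. Long transcripts collect more reads, so these ranks describe reads and not molecules. The sections that follow take the genes in the order of the pathway.

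**Figure D1:**
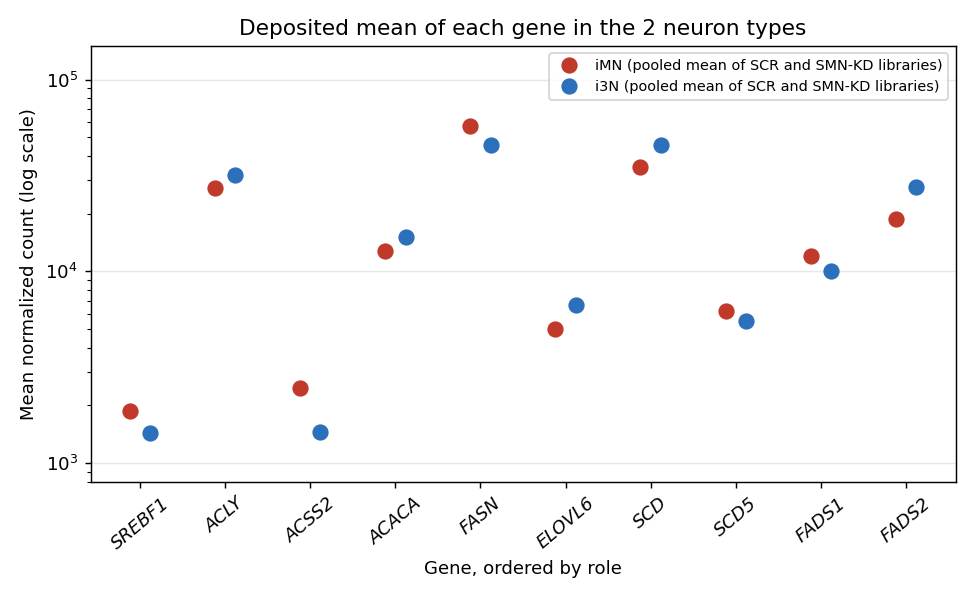
Mean normalized count of each of the 10 genes (vertical axis, log scale) in iMNs and i3Ns, 1 point per gene and cell type, each the authors' mean over SCR and *SMN*-KD libraries, with no error bar because none could be given. *FASN*, *SCD*, *ACLY* and *FADS2* are the highest 4 in both, down to 18779 for *FADS2* in iMNs, and *SREBF1* and *ACSS2* are the lowest 2.

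*SREBF1*, the regulator, was the lowest of the 10. Its mean was 1881 in iMNs, at rank 5297 of 16406, and 1428 in i3Ns, at rank 6486 of 19016. Its relative *SREBF2*, which is known mainly for cholesterol synthesis, had 28778 and 35892. Per kilobase of transcript, *SREBF2* exceeded *SREBF1* 14.3-fold in iMNs and 23.5-fold in i3Ns. The SREBP escort *SCAP* had 6683 and 6719, and its retention partner *INSIG1*, itself a target of SREBPs, had 8237 and 7604. Of 16 listed genes of SREBP processing and lipogenic regulation, 0 were past 2-fold between the cell types, and the median log2 ratio was 0.03. Past 2-fold were 24.6% of all genes, and 8.81% of genes with a mean of at least 1000 in both tables. In each table, 13 genes of this list reached 1000, so the lower share is the nearer background. *PRKAA1*, a subunit of the AMP-activated kinase, lay just inside at 1.99-fold higher in i3Ns (1150 and 2447), and was past 2-fold under 3 of the 4 other scalings of the tables, at up to 2.13-fold.

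For the supply of acetyl-CoA, *ACLY* stood far above *ACSS2*. *ACLY* had 27281 normalized counts in iMNs and 31916 in i3Ns, ranks 162 and 105. *ACSS2* had 2462 and 1452. The per-kilobase ratio of *ACLY* to *ACSS2* was 7.45 in iMNs and 14.8 in i3Ns. This change of 1.98-fold does not depend on how the tables are scaled to each other, because both genes come from the same table. *ACSS1*, the mitochondrial relative of *ACSS2*, was low in both tables. It had 11.7 in iMNs, at rank 15746 of 16406, and 21.0 in i3Ns, at rank 14972 of 19016. The citrate carrier *SLC25A1* had 4538 and 3098.

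Carboxylation and synthesis followed. *ACACA* had 12743 normalized counts in iMNs and 15116 in i3Ns. A further *ACACA* identifier, which is outside the main annotation, held 535 and 1131, or 4.03% and 6.96% of the sum of both identifiers. Whether reads were split between these identifiers was not tested. *ACACB*, the relative tied to fatty acid oxidation, had 70.2 and 153.8, so per kilobase *ACACA* was 169.8-fold higher in iMNs and 91.9-fold higher in i3Ns. *FASN* had the highest mean of the 10 in iMNs, 57002 at rank 47, and 45386 at rank 59 in i3Ns. *FASN* exceeded *ACACA* 5.29-fold per kilobase in iMNs and 3.55-fold in i3Ns.

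Elongation and the first desaturation gave a large step between *ELOVL6* and *SCD*. *ELOVL6* had 5019.8 in iMNs and 6641 in i3Ns. *SCD* had 35148 and 45541, ranks 96 and 57. The per-kilobase ratio of *SCD* to *ELOVL6* was nearly the same in both tables, 8.77 in iMNs and 8.59 in i3Ns. *SCD5*, a relative of *SCD* known for its expression in brain, had 6208 and 5537. *SCD* exceeded *SCD5* 3.28-fold per kilobase in iMNs and 4.77-fold in i3Ns. Among the elongases, *ELOVL6* came after *ELOVL5* and *ELOVL4* per kilobase in both tables, and before the others. It made up 13.6% of the summed per-kilobase level of 6 listed elongases in iMNs and 17.4% of 7 in i3Ns, and *ELOVL5*, which elongates polyunsaturated fatty acids, made up 53.7% and 47.0%.

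*FADS2* was higher than *FADS1* in both cell types. *FADS2* had 18779 normalized counts in iMNs and 27532 in i3Ns, and *FADS1* had 12013 and 10041. Per kilobase, *FADS2* exceeded *FADS1* 2.21-fold in iMNs and 3.87-fold in i3Ns. These ratios depend on the transcript length used for *FADS2*, which has a longer annotated transcript of 5073 bases against 3091. With the longest transcripts they were 1.34 and 2.36. The change between the tables, 1.75-fold, is free of that choice. *FADS3*, which lies 6.16 kb beyond *FADS2*, had 1279.98 and 737.

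The highest levels per kilobase were those of 4 genes in each table. In iMNs these were *FASN* (6735), *SCD* (6701), *ACLY* (6355) and *FADS2* (6075), and neighbours in that order differed by at most 1.05-fold. The next gene, *FADS1*, was at 2753, 2.21-fold below *FADS2*. In i3Ns these 4 genes came in another order, *FADS2* (8907), *SCD* (8683), *ACLY* (7434) and *FASN* (5362), in which *ACLY* exceeded *FASN* 1.39-fold, and *FADS1* was 2.33-fold below *FASN* at 2301. The 4 genes made up 76.2% of the summed per-kilobase level of the 10 in iMNs and 80.3% in i3Ns. The level of *FADS2* rests on its shorter transcript, since with the longest one it was at 3702 in iMNs, 1.34-fold above *FADS1*, and at 5427 in i3Ns. Below them came *SCD5* (2042 and 1821) and *ACACA* (1273 and 1510), and *SREBF1* was last in both (384 and 291). The steps at the lower end were nearly as large, 1.99-fold from *ELOVL6* to *SREBF1* in iMNs, and 2.01-fold from *ELOVL6* to *ACSS2* and 1.73-fold from *ACSS2* to *SREBF1* in i3Ns. No spread between libraries is known, so the order among close neighbours is a description of these means only.

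**Figure D2:**
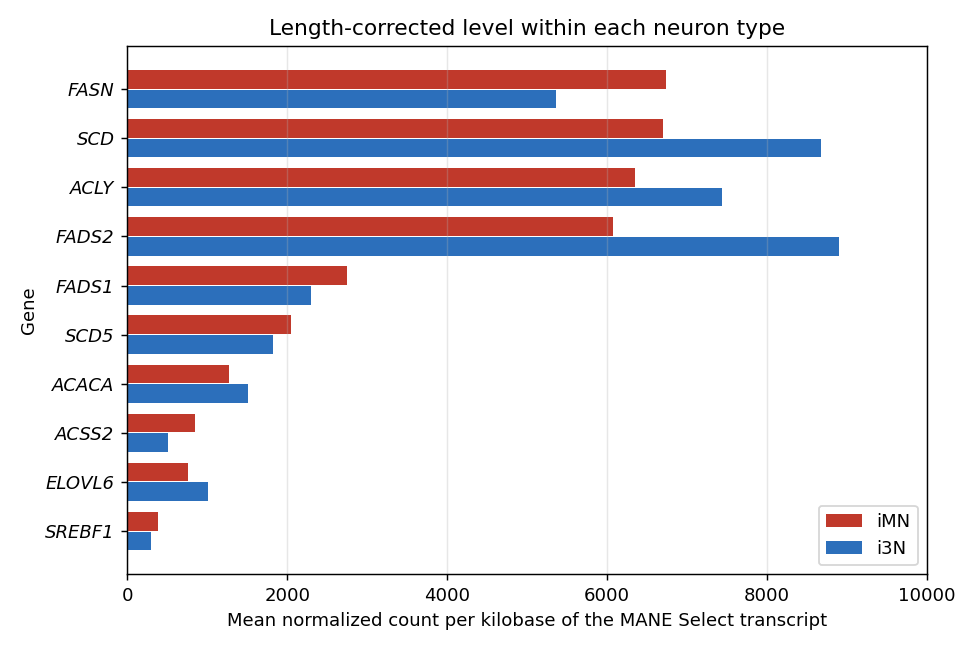
Mean normalized count per kilobase of the MANE Select transcript (horizontal axis, from 0) for the 10 genes, with 1 bar per gene and cell type and no error bars because none could be given. *FASN*, *SCD*, *ACLY* and *FADS2* stand at or above 5362 in both tables, and the other 6 at or below 2753.

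The levels of the 10 genes were similar in the 2 cell types. The tables were normalized separately, so i3N means were first divided by 1.07, the median ratio over 12071 genes with a mean of at least 100 in both. None of the 10 was past 2-fold in either direction. Over all 16093 genes in both tables, 9.46% were more than 2-fold higher in i3Ns and 15.2% were more than 2-fold higher in iMNs. Weakly expressed genes fill much of that share. Among the 6960 genes with a mean of at least 1000 in both tables, as for these 10, 8.81% were past 2-fold in either direction, so 0 of 10 is close to what such genes show. The median absolute log2 ratio was 0.33 over the 10 and 0.33 over those 6960 genes. The median signed log2 ratio of the 10 was -0.07, beside 0.01 over the 6960.

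By direction, 5 genes were higher in i3Ns and 5 in iMNs. Higher in i3Ns were *FADS2* (log2 ratio 0.45), *ELOVL6* (0.30), *SCD* (0.27), *ACACA* (0.15) and *ACLY* (0.13). Higher in iMNs were *ACSS2* (-0.86), *SREBF1* (-0.50), *FASN* (-0.43), *FADS1* (-0.36) and *SCD5* (-0.26). *ACSS2* showed the largest ratio of the 10, 1.82-fold higher in iMNs. The paired enzymes therefore lay on opposite sides, *SCD* against *SCD5*, *FADS2* against *FADS1* and *ACLY* against *ACSS2*. Whether any of these differences exceeds the spread between libraries could not be tested.

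**Figure D3:**
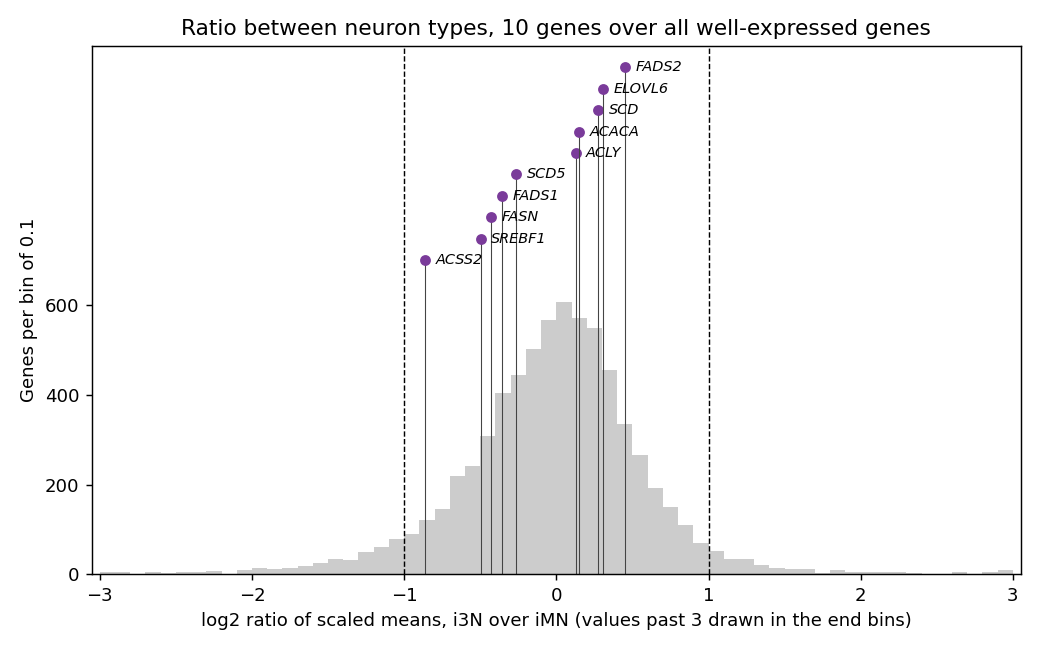
Histogram of the log2 ratio of scaled means, i3N over iMN, for the 6960 genes whose means reached 1000 in iMNs and in i3Ns (grey, genes per bin of 0.1), with the 10 genes as labelled points on vertical lines whose height has no meaning. Dashed lines mark 2-fold, and all 10 lie between them, from -0.86 for *ACSS2* to 0.45 for *FADS2*.

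Other steps around the pathway were examined as lists. Of 13 genes for the supply of citrate, acetyl-CoA and NADPH, 2 were past 2-fold, both higher in iMNs, and the median log2 ratio was -0.13. This share is near the 15.2% of all genes that were higher in iMNs. The 2 were malic enzymes, *ME1*, with 1258 in iMNs and 592 in i3Ns (log2 ratio -1.19), and *ME3*, with 959.7 and 379 (-1.44). The malic enzyme *ME2* went the other way within 2-fold, with 1564 in iMNs and 2790 in i3Ns (0.74). Malic enzyme *ME1* makes NADPH in the cytosol. Of the 10 elongation cycle genes listed in both tables, besides *ELOVL6*, only *HACD1* was past 2-fold (398 and 166, log2 ratio -1.36). The list of other desaturases and their redox partners had 11 genes, with 2 past 2-fold in i3Ns and 1 in iMNs, and its median log2 ratio was 0.01. Of these, *CYB5A*, the electron carrier for microsomal desaturases, had 190.2 and 418 (log2 ratio 1.04). *FADS3* had a log2 ratio of -0.90. Of 9 genes of malonyl-CoA metabolism and mitochondrial fatty acid synthesis listed in both tables, 1 was past 2-fold in each direction, with a median of -0.48. *ACACB* was the one higher in i3Ns (1.03). These counts are of at most 2 genes a direction and stand beside 9.46% of all genes higher in i3Ns and 15.2% higher in iMNs. Under other scalings of the tables *OXSM*, of the mitochondrial pathway, and *ELOVL1* also passed 2-fold in i3Ns, at up to 2.13-fold and 2.06-fold.

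**Figure D4:**
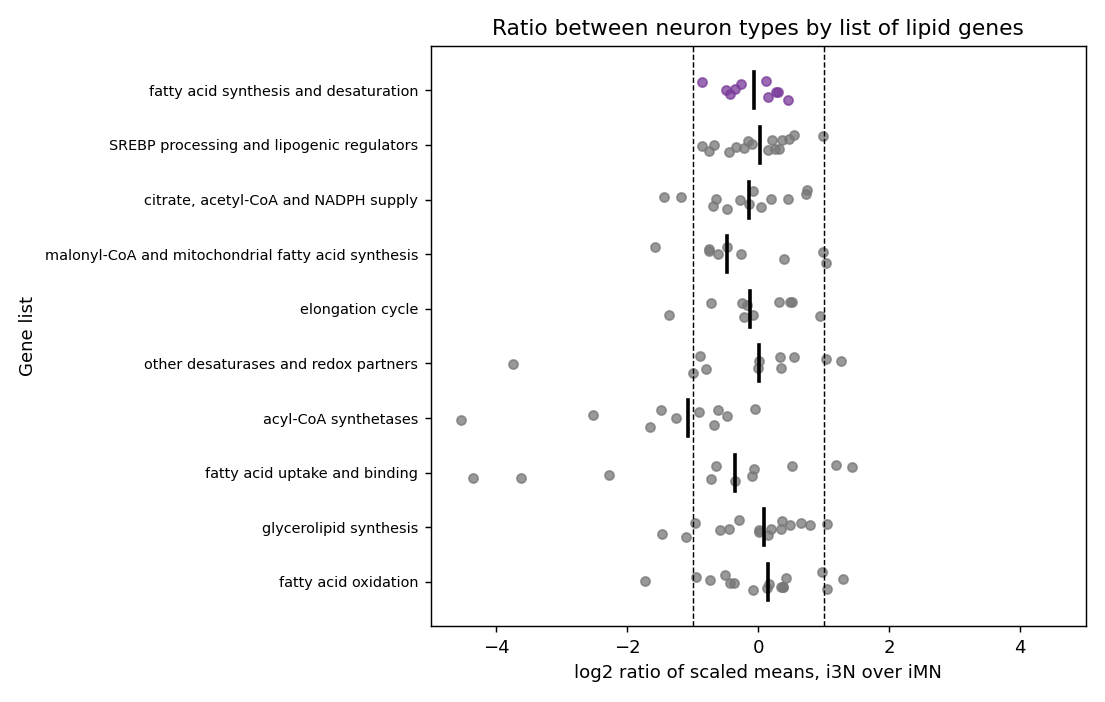
Log2 ratio of scaled means, i3N over iMN (horizontal axis), for each gene of the 10 synthesis and desaturation genes and of 9 other lists of lipid genes, 1 point per gene with random vertical spread, black bars at the list medians and dashed lines at 2-fold. The 10 genes all lie within 2-fold, and the median of the acyl-CoA synthetases lies at -1.08.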

How the data were processed

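RNA was depleted of ribosomal RNA and sequenced as paired reads. Reads were trimmed by the authors with fastp and quantified in Salmon, and DESeq2 was run on the libraries of either cell type. Versions, the transcript annotation and the low-count filter are not given in the sources used here, and the labels name hg38. The deposited signal is the mean over 6 libraries of a cell type of counts divided by size factors. The deposited tables also hold fold changes, their errors and p-values, which are the authors' own comparison and were not used. A count table was not analysed here.

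Tables were matched on the Ensembl identifier. Ratios between cell types were scaled by the median ratio of genes with a mean of at least 100 in both, and 2-fold was the threshold. Lengths came from GENCODE release 44 (693 and 878 identifiers are outside its main annotation). The members and lists were chosen with earlier results of these data known. Beside the members, genes past 2-fold with a mean of at least 100 in 1 table, at most 6 per list, and close relatives were named. Markers, regulators, genes near 2-fold, the citrate carrier and other elongases and ACSL genes were named after their values were seen, and so were the promoter motifs. Pair ratios were chosen after the files were read. Python 3.11.15, pandas 2.3.3 and numpy 2.4.6 were used.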

Additional observations from a re-analysis of the deposited data

How the results depend on the processing

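All 10 log2 ratios kept their direction and their side of 2-fold under the other scalings (share of the summed means, values as deposited, genes of at least 1000, every gene) and with the identifiers of a symbol summed. Among these, the largest shift of the ratios was 0.10, for values as deposited. Summing both identifiers of *ACACA* moved its log2 ratio from 0.15 to 0.19. With a threshold of 1.5-fold, 1 of the 10, *ACSS2*, was higher in iMNs, against 0 at 2-fold, and 24.7% of all genes were. Applying the other scalings to the lists was chosen after seeing the data. It took *PRKAA1*, *OXSM*, *CPT1C*, *ELOVL1* and the marker *COL3A1* past 2-fold in i3Ns under at least 1 of them, all between 1.92-fold and 1.99-fold before, and took no gene of these lists back within 2-fold. With the longest transcripts, the per-kilobase order at the top in i3Ns became *SCD*, *ACLY*, *FADS2*, and the order in iMNs was the same. No paired analysis was possible because the tables hold 1 pooled mean per cell type, and for the same reason no replicate could be left out. Depth per library is unknown, so the precision of these means cannot be given.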

Other observations

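Genes that use, import or burn fatty acids were compared in the same way, as means with no test. Of the 10 acyl-CoA synthetases listed in both tables, which activate fatty acids for use, 5 were past 2-fold and all 5 were higher in iMNs, beside 15.2% of all genes in that direction. The median log2 ratio of this list was -1.08, and that of the 10 synthesis and desaturation genes was -0.07. *ACSL4*, which prefers arachidonate, had 23039 normalized counts in iMNs and 10395 in i3Ns (log2 ratio -1.25). *ACSL6*, known for neuronal expression, had 2765 and 1064 (-1.48), and *ACSBG1* had 466 and 21.4 (-4.54). *SLC27A3* had 142 and 26.7 (-2.52). *ACSL4* was the highest of 4 ACSL genes per kilobase in both tables, with 59.7% of their sum in iMNs and 48.1% in i3Ns.

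Among 11 genes of fatty acid uptake and binding, 3 were past 2-fold in iMNs and 2 in i3Ns, beside 15.2% and 9.46% of all genes. *FABP7*, a fatty acid-binding protein of neural progenitors and glia, had 218 in iMNs and 11.4 in i3Ns (log2 ratio -4.36), and *MFSD2A*, a transporter of lysophospholipids, had 419 and 92.7 (-2.27). *FABP3* had 210.4 and 512 (1.18), and the scavenger receptor *CD36* had 46.9 and 135.7 (1.43). The fatty acid oxidation list of 16 genes had a median log2 ratio of 0.15, with 2 past 2-fold in i3Ns and 1 in iMNs, beside the same shares, and *CPT1C* just inside at 1.97-fold higher in i3Ns. *CPT1A*, which admits fatty acids into mitochondria, had 299.7 in iMNs and 96.4 in i3Ns (-1.74), and the oxidation enzymes *HADHB* (1172 and 2614, 1.06) and *ACAA2* (525 and 1387, 1.30) were on the other side. The glycerolipid list of 16 genes had a median of 0.09, with 2 past 2-fold in iMNs and 1 in i3Ns, beside 15.2% and 9.46% of all genes. *AGPAT1*, an acyltransferase, had 8073 in iMNs and 4016 in i3Ns (-1.11), and *LPIN3* had 45.7 and 101.8 (1.06). The stem cell line and the protocol differ along with the cell type here too. The share of libraries under *SMN*-KD is the same in both tables, but its effect may differ between the cell types. The paper reports more genes changed by *SMN*-KD in i3Ns than in iMNs. The part of *SMN*-KD in these ratios was not tested.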
